A study of Mus musculus with 12 samples.

Results

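The comparison described here is that of glomeruli from Dach1 knockout mice with glomeruli from control mice after streptozotocin (STZ), 6 of the 12 libraries of the series, chosen by their labels for genotype and treatment. Dach1 encodes a nuclear protein that regulates transcription, and in the knockouts it was deleted in podocytes, the epithelial cells that wrap the glomerular capillaries. The labels do not name the Cre driver. The titles of the STZ control samples carry the unexplained tag hetN, which those of the untreated controls do not, so whether the STZ controls carry an allele of their own is not known. STZ destroys the insulin-producing beta cells of the pancreas. All mice were of the C57BL/6 background. The control + STZ group and the DACH1 KO + STZ group each held 3 different mice, all injected into the peritoneum with 50 µg STZ per g body weight daily for 5 days, with glomerular RNA taken 10 days after induction. Their age is not stated separately from that of the untreated mice, which were 10 weeks old, and no glucose value is given. Glomeruli were captured with magnetic beads perfused through the heart, and total RNA was sequenced. The untreated (baseline) libraries, again 3 control and 3 knockout, are used below only to set the same genes side by side.

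A podocyte carries interdigitating foot processes joined by the slit diaphragm, secretes part of the glomerular basement membrane and releases vascular endothelial growth factor to the capillary endothelium. Dachshund proteins act in the nucleus with EYA proteins and the sine oculis homeobox proteins in the development of the eye, ear, muscle and kidney. In diabetic kidney disease podocytes are damaged and lost, and matrix builds up in the glomerulus.

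Among 16291 genes tested, 175 differed between knockout and control glomeruli after STZ (1.07% called), 137 of them higher (0.841%) and 38 lower (0.233%) in knockouts. The genes that rose include those of secreted and cell-surface matrix proteins (Adamtsl1, Efemp1, Fn1, Ogn, Svep1, Sdc2), of retinoic acid turnover (Aldh1a1, Cyp26a1) and of prostaglandin D and F signalling (Hpgds, Ptgfr). The genes that fell include the receptor gene Bmpr1b, the anion transporter gene Slc26a7 and the podocyte-expressed genes Vegfa, Thsd7a and Cdkn1c. Of the 137 higher genes 107 had a log2 fold change of at least 1 and 25 of at least 3, with a median of 1.57, and of the 38 lower genes 29 fell by at least 1 on that scale, with a median of -1.48. The median over all genes was -0.02, and 46.6% of them had a positive log2 fold change. Genes were called at an adjusted p under 0.05 in edgeR's quasi-likelihood test with Benjamini-Hochberg adjustment, which is the test behind every adjusted p below. In all 175 called genes the 3 knockout values lay on one side of the 3 control values, as they did in 14.9% of all genes (8.62% with knockouts higher and 6.26% with knockouts lower). Without any 1 library between 40 genes (without control 2) and 109 genes (without control 3) were called, and 31 of the 175 were called in all 6 of these fits.

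**Figure D1:**
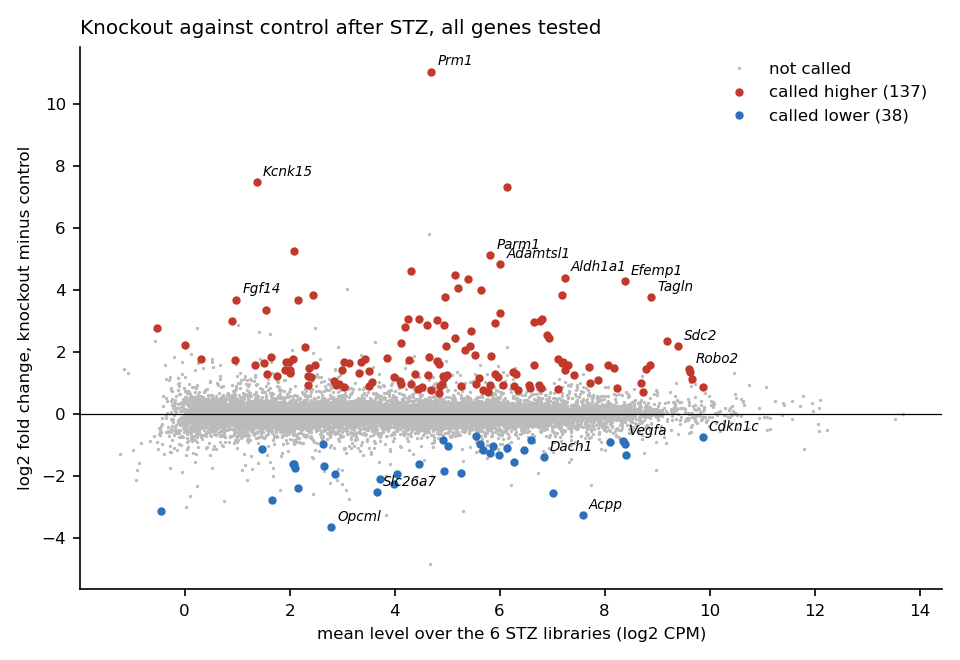
Log2 fold change (knockout minus control, after STZ) of each of 16291 genes against its mean level over the 6 libraries in log2 CPM, counts scaled to the library total. Red points are the 137 genes called higher and blue points the 38 called lower. Prm1 lies highest, at 11.04, and called genes are found at all levels.

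Levels are given as TMM-scaled CPM, which is not divided by gene length, so they are compared between libraries and not between genes. The 6 libraries held 66134170 to 78631380 counts each. In a principal component analysis the first component (41.3% of the variance) ran from -45.9 in control 1 to 39.2 in knockout 1, and the second (29.3%) separated the genotypes, with controls at 15.8 to 33.0 and knockouts at -26.7 to -19.0. Proximal tubule markers, a sign of tubule carried over with the glomeruli, had mean levels of 6.01, 6.77 and 8.00 log2 CPM in controls and 7.81, 6.49 and 6.31 in knockouts. Control 1 had the highest mean of the macrophage markers, 4.99 log2 CPM against 2.39 to 3.80 in the other 5 libraries, and without it 84 genes were called, 64 higher and 20 lower. Knockout 2 was the only library with the RNA pattern of a female mouse, with Xist at 146 CPM and at most 1.42 CPM elsewhere, and without it 54 genes were called, 48 higher and 6 lower. The slit diaphragm gene Nphs1 (nephrin), which defines podocytes, was read at 2351 to 3321 CPM in the 6 libraries.

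The targeted gene Dach1 lies at chr14:97786846-98169765 (GRCm38.p6, RefSeq). It stood at 146, 173 and 180 CPM in the controls and 54.7, 66.4 and 66.7 CPM in the knockouts. All 3 knockouts lay below all 3 controls, and the log2 fold change was -1.41 (SE 0.14) at an adjusted p of 0.00942. The call was lost without control 2 (adjusted p = 0.0635), knockout 2 (0.0502) or knockout 3 (0.0643), while the log2 fold change stayed between -1.5 and -1.32. Whole glomeruli hold several cell types, so in these libraries fewer cells of a type and less RNA per cell cannot be told apart, for Dach1 or for any gene below.

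Among the 14 genes tested of the dachshund, EYA and sine oculis families, Dach1 fell and Eya4 rose. Eya4 encodes a phosphatase and transcriptional coactivator that can partner sine oculis proteins. It was at 19.1, 24.5 and 29.9 CPM in controls and 80.9, 82.9 and 106 CPM in knockouts, and the log2 fold change was 1.88 (SE 0.20) at an adjusted p of 0.0122. The knockout values were tightly grouped and all above the controls, and the call was lost without control 2 (adjusted p = 0.0920), knockout 2 (0.0502) or knockout 3 (0.0615). None of the 21 genes of PTIP and the histone H3 lysine 4 methyltransferases passed in edgeR (0 had an unadjusted p under 0.05, and DESeq2 called 0), and Paxip1, which encodes PTIP, had a log2 fold change of -0.21 (adjusted p = 0.754). Nell2, which encodes a secreted glycoprotein with EGF-like repeats, stood at 371, 198 and 183 CPM in controls and 583, 638 and 537 CPM in knockouts. The groups did not overlap, but its log2 fold change of 1.22 did not pass (adjusted p = 0.154). It passed in 3 of 13 other settings, without control 1 (adjusted p = 0.0221), with the proximal tubule covariate (0.0442) and in DESeq2 (0.00239), and the adjusted p reached 0.451 without control 2.

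**Figure D2:**
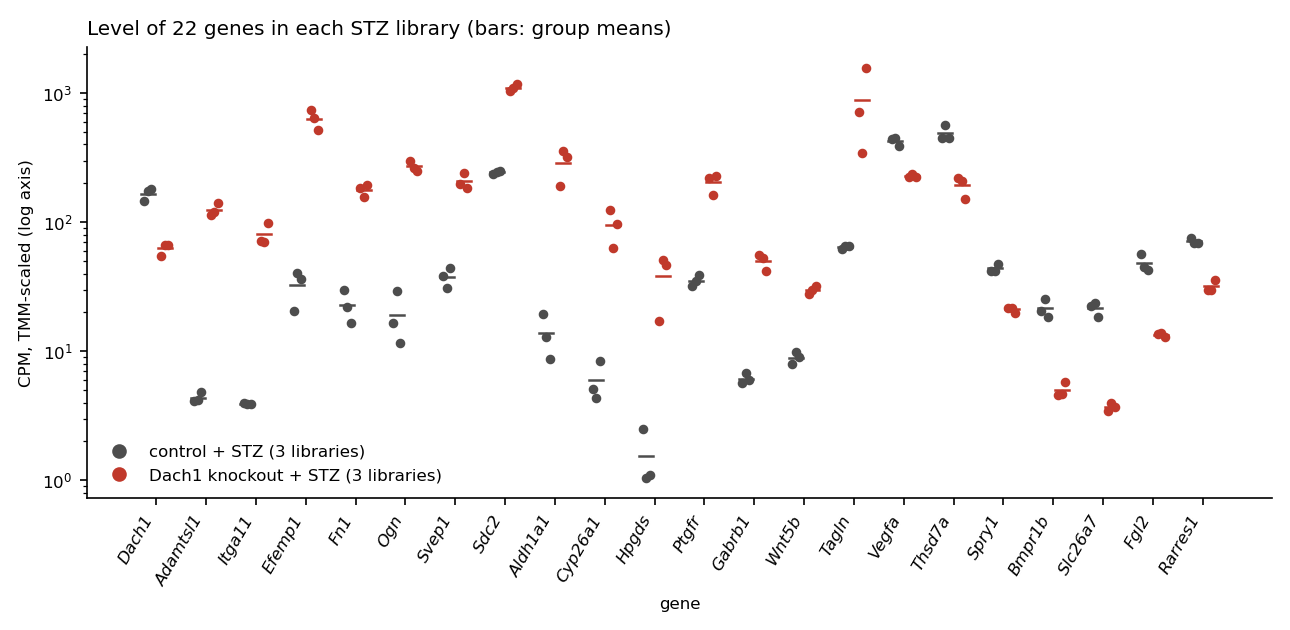
Level in CPM (log axis) of 22 genes in each of the 3 control (grey) and 3 knockout (red) libraries after STZ, with bars at the group means. The groups do not overlap in any of the 22, and Tagln has the widest spread among knockouts (341 to 1577 CPM).

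Matrix genes were among the strongest increases. Adamtsl1 (chr4:85513852-86428390) encodes a secreted protein related to the ADAMTS proteases but without protease activity. It stood at 4.09, 4.19 and 4.85 CPM in controls and 114, 121 and 141 CPM in knockouts. The knockouts were close to each other and far above the controls, at a log2 fold change of 4.84 with SE 0.15 (adjusted p = 6.66e-05), and the adjusted p was at most 0.00306 with any 1 library left out. Adamtsl1 was the only 1 of 26 ADAMTS and ADAMTS-like genes that passed.

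Itga11 (chr9:62677855-62783979), the alpha subunit of a collagen-binding integrin, had nearly equal controls. Its levels were 3.94, 3.88 and 3.89 CPM in controls and 71.1, 70.3 and 99.3 CPM in knockouts (log2 fold change 4.36, SE 0.18, adjusted p = 0.000294). No other of the 26 integrin genes tested passed, and their median log2 fold change was -0.02. Sdc2, which encodes the cell-surface heparan sulfate proteoglycan syndecan-2, was at 234, 245 and 250 CPM in controls and 1042, 1095 and 1167 CPM in knockouts. Each group was compact and apart from the other, and the log2 fold change was 2.18 (SE 0.12, adjusted p = 0.00111). Gpc3, which encodes the glypican that is anchored to the membrane by a lipid, rose by 2.34 (adjusted p = 0.0193), from 138 to 236 CPM in controls to 718 to 1260 CPM in knockouts, and lost its call without 1 library in 4 of the 6 cases (adjusted p up to 0.119). The median of the 15 syndecan and glypican genes was -0.10, so 2 members rose within a list whose other members lay around or below 0.

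Of 29 fibulin and elastic fibre genes 4 rose and none fell (0.841% and 0.233% over all genes). A positive log2 fold change was found in 20, against 46.6% of all genes, and the median was 0.27. The lists were written with earlier results of these data known. Efemp1 (chr11:28853154-28926743), which encodes fibulin-3, was at 20.4, 40.7 and 36.4 CPM in controls and 745, 643 and 514 CPM in knockouts. The lowest knockout lay far above the highest control, and the log2 fold change was 4.29 (SE 0.32, adjusted p = 0.00293). The other 3 moved less. Fbln5, which encodes fibulin-5, an organiser of elastic fibres, rose by 1.29 (adjusted p = 0.0428), Lox, the enzyme that crosslinks collagen and elastin, by 1.31 (adjusted p = 0.0247) and the microfibril gene Mfap2 by 1.21 (adjusted p = 0.0339). Fbln5 and Mfap2 were not called in any of the 6 fits with a library left out, and Lox was called in 2 of them.

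Of 33 fibronectin and matricellular genes 3 rose and none fell (0.841% and 0.233% over all genes). A positive log2 fold change was found in 23, against 46.6% of all genes, and the median was 0.24. Fn1, which encodes fibronectin, stood at 29.6, 21.9 and 16.6 CPM in controls and 182, 155 and 195 CPM in knockouts (log2 fold change 2.97, SE 0.23, adjusted p = 0.00388). Svep1, which encodes a large secreted adhesion protein, stood at 38.3, 31.0 and 44.3 CPM in controls and 197, 242 and 185 CPM in knockouts (2.46, SE 0.18, adjusted p = 0.00296). In both genes the groups were apart by several times their own spread, and both kept their call with any library left out. Tnxb, which encodes tenascin-X, rose by 1.69 (SE 0.16, adjusted p = 0.00926) and lost its call without control 2 (adjusted p = 0.0696) and without knockout 3 (0.0512).

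Ogn and Omd encode osteoglycin and osteomodulin, small leucine-rich proteoglycans. That list of 12 had 10 positive values, against 46.6% over all genes, and a median of 0.39. Ogn and Omd lie beside each other on chromosome 13 (Omd at chr13:49582462-49592612, Ogn at chr13:49608015-49624501). Ogn was at 16.6, 29.2 and 11.6 CPM in controls and 299.8, 262 and 251 CPM in knockouts, and the log2 fold change was 3.82 (SE 0.36) at an adjusted p of 0.00796. Omd was at 1.4, 2.29 and 2.02 CPM in controls and 4.96, 7.75 and 6.70 CPM in knockouts (1.76, SE 0.26, adjusted p = 0.0339), and was not called in any fit with a library left out. Aspn and Ecm2, of the same family and named here after their values were seen, had log2 fold changes of 0.44 (adjusted p = 0.776) and 0.05 (adjusted p = 0.990). Podn, another family member, ran from 11.7 to 14.7 CPM in controls and from 20.4 to 35.9 CPM in knockouts but did not pass (0.95, adjusted p = 0.185).

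Few collagen genes passed. Of 29 basement membrane genes 1 passed, Col4a6, which encodes the alpha-6 chain of type IV collagen and rose from 27.4 to 31.5 CPM in controls to 62.9 to 74.8 CPM in knockouts (1.16, SE 0.13, adjusted p = 0.0122). Of 20 interstitial collagen genes 1 passed, the little-expressed Col26a1 (adjusted p = 0.0243), from 3.75 to 5.16 CPM in controls to 10.3 to 13.2 CPM in knockouts. That list had 16 positive values, against 46.6% over all genes, and a median of 0.27. In 8 of its genes all knockouts lay above all controls, as in 8.62% of all genes. Col1a1 and Col3a1, the main fibrillar collagen genes, had log2 fold changes of 0.76 (adjusted p = 0.117) and 0.84 (adjusted p = 0.228), with groups that did not overlap. Of 31 matrix metalloproteinase and inhibitor genes 1 passed, Mmp27 (2.14, adjusted p = 0.0440). With a library left out Col4a6 kept its call in 3 of 6 fits and Col26a1 and Mmp27 in 1 each (adjusted p up to 0.0708, 0.123 and 0.212).

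Interstitial fibroblasts also make many of these proteins, and no member of a 14-gene fibroblast marker list passed in edgeR (4 had an unadjusted p under 0.05, and DESeq2 called 2). The list's median log2 fold change was 0.21 against -0.02 for all genes, and 11 of its members had a positive value. Its mean level ran from 3.82 to 4.08 log2 CPM in controls and from 4.19 to 4.37 in knockouts, without overlap. The list includes Col1a1 and Col3a1. Pdgfra, a defining fibroblast receptor gene, was named after its values were seen. It was at 20.6, 27.5 and 15.2 CPM in controls and 18.5, 20.7 and 15.0 CPM in knockouts (adjusted p = 0.913). The part of fibroblasts in the matrix results was not tested.

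**Figure D3:**
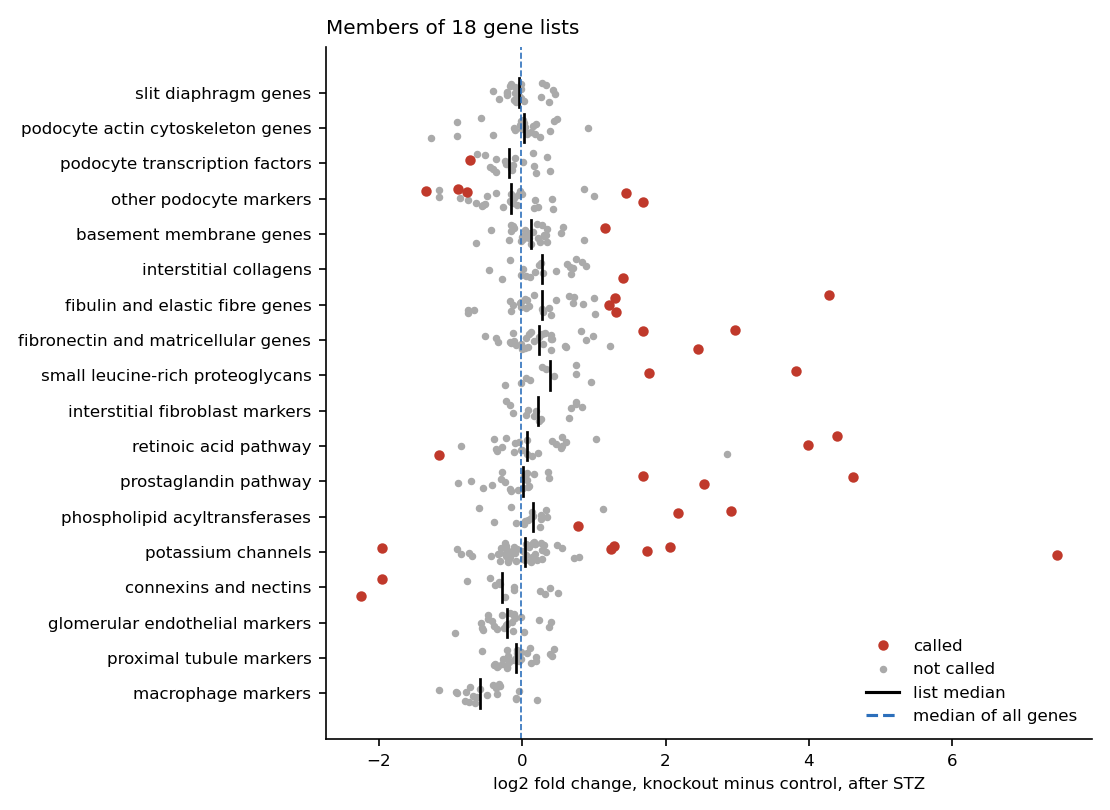
Log2 fold change (knockout minus control, after STZ) of the members of 18 gene lists, with called genes in red, list medians as black lines and the median of all genes as a dashed line. In the fibulin, matricellular and proteoglycan lists the called genes lie farthest to the right, and the list medians are 0.27, 0.24 and 0.39 against -0.02 for all genes. The interstitial collagen list has a median of 0.27 as well.

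Retinoic acid, made from vitamin A by retinaldehyde dehydrogenases and broken down by CYP26 enzymes, acts through nuclear receptors that bind DNA as repeats of a short sequence. Of 26 genes of this pathway 2 rose and 1 fell (0.841% and 0.233% over all genes), against a list median of 0.07. Aldh1a1 (chr19:20492583-20643463), a retinaldehyde dehydrogenase, was at 19.6, 13 and 8.69 CPM in controls and 190, 354 and 322 CPM in knockouts (log2 fold change 4.39, SE 0.39, adjusted p = 0.00654). Cyp26a1 (chr19:37697738-37701536), which breaks retinoic acid down, was at 5.14, 4.36 and 8.36 CPM in controls and 123, 63.6 and 96.5 CPM in knockouts (3.99, SE 0.36, adjusted p = 0.00654). In both genes the lowest knockout was several times the highest control. With a library left out the adjusted p rose to 0.0635 at most for Aldh1a1, which lost its call without control 2, and to 0.0465 for Cyp26a1, which lost none. Rarres1, named for its response to retinoids in skin, fell from 68.7 to 75.4 CPM in controls to 29.6 to 35.9 CPM in knockouts (-1.16, SE 0.12, adjusted p = 0.0116), a call kept in 3 of 6 fits (adjusted p up to 0.0635).

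The rest of the pathway did not pass. Rdh10, the retinol dehydrogenase of the first step, was at 16.8, 25.3 and 28.5 CPM in controls and 56.3, 44.0 and 44.1 CPM in knockouts, without overlap (1.03, adjusted p = 0.117). Named after their values were seen, Aldh1a2 had a log2 fold change of 0.56 (adjusted p = 0.858) and the receptor gene Rarb 0.54 (adjusted p = 0.613), with groups that overlapped. Cyp26b1, the relative of Cyp26a1, ranged from 79.8 to 840 CPM among controls and from 50.1 to 428 CPM among knockouts (-0.86, adjusted p = 0.917), so its spread within a group was wider than the difference between groups.

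Retinoic acid receptor sites of Cyp26a1 and Rarb are shown because they are textbook examples of such sites, and 1 of these genes rose in the knockouts while the other did not pass. Each line gives 29 bases 5′ to 3′ on the gene's strand, from the RefSeq promoter table (GRCm38.p6), with a direct repeat of the receptor half-site at a spacing of 5 in capitals. Cyp26a1 is read from chr19:37697770-37697798 on the plus strand and Rarb from chr14:16575507-16575535 on the minus strand.
Cyp26a1: taaagaTGAACTTTGGGTGAACTaatttg
Rarb: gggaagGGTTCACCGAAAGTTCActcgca

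The repeat lies 16 to 32 bases before the start that the promoter table uses for Cyp26a1 (37697808) and 37 to 53 bases before the one it uses for Rarb (16575476). Both gene records start farther upstream, that of Cyp26a1 at 37697738, by 70 bases, and that of Rarb at 17082331, so both repeats lie inside the gene record. Searched on both strands of the 250 bases before the table's start, the repeat was found in 6 of 12811 genes with a promoter in the RefSeq table (0.0468%), in 1 of 100 called higher (Cyp26a1) and in 0 of 29 called lower. This search was chosen after the rise of Cyp26a1 was seen. The TATA box letters TATAAA occurred in 7.68% of all these promoters, 9% of those of higher genes and 10.3% of those of lower genes. The forkhead core TGTTTAC occurred in 2.32%, 1% and 0%, and the homeodomain core TAATTA in 2.85%, 2% and 0%. Each search was made on both strands by itself, so that matches could overlap, and a match is a description of the letters only.

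Prostaglandins are lipid signals that act on glomerular blood flow and contraction. Of 22 genes of this pathway 3 rose and none fell (0.841% and 0.233% over all genes), with a list median of 0.01. Hpgds and Ptgds encode the enzymes that make prostaglandin D2, and Ptgfr (chr3:151798610-151837528) encodes the receptor for prostaglandin F2-alpha. Ptgfr was at 32.1, 34.7 and 38.9 CPM in controls and 220, 161 and 229 CPM in knockouts (log2 fold change 2.53, SE 0.17, adjusted p = 0.00217). Hpgds was at 2.51, 1.05 and 1.10 CPM in controls and 17.2, 50.6 and 46.7 CPM in knockouts (4.62, SE 0.56, adjusted p = 0.0199). Ptgds was at 4.12, 4.07 and 6.48 CPM in controls and 12.8, 18.1 and 16.2 CPM in knockouts (1.68, SE 0.24, adjusted p = 0.0331). Knockouts were above controls in all 3, with the tightest groups in Ptgfr. Ptgfr kept its call with any library left out, Hpgds in 2 of 6 fits and Ptgds in 1. Ptger4, a prostaglandin E2 receptor gene, went from 42.5 to 72.8 CPM in controls to 26.9 to 37.6 CPM in knockouts and did not pass (-0.90, adjusted p = 0.207).

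Of 19 genes of enzymes that put acyl chains back onto phospholipids 3 rose and none fell (0.841% and 0.233% over all genes). This list too was written with earlier results of these data known. Lpcat4 was at 13.6, 13.5 and 15.4 CPM in controls and 98.0, 108 and 114 CPM in knockouts (2.91, SE 0.12, adjusted p = 0.000294). Mboat2 was at 10.5, 12.2 and 11.5 CPM in controls and 58.5, 50.5 and 45.9 CPM in knockouts (2.18, SE 0.14, adjusted p = 0.00169). The spread within groups was small beside the difference in both, and both kept their call with any library left out. The change of Lclat1, a cardiolipin and phosphatidylinositol acyltransferase gene, was smaller (0.78, adjusted p = 0.0298) and was not called in any fit with a library left out.

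Podocyte genes were tested in 4 lists. None of 23 slit diaphragm genes (median -0.04, 3 with an unadjusted p under 0.05 and 1 called by DESeq2) and none of 24 podocyte actin cytoskeleton genes (median 0.03, 6 and 5) passed in edgeR. Nphs1 had a log2 fold change of 0.28 (adjusted p = 0.685). Synpo, which encodes the foot process actin protein synaptopodin, was at 856 to 1145 CPM in controls and 598 to 706 CPM in knockouts, without overlap, and did not pass (-0.58, adjusted p = 0.256). Nphs1 and Synpo were named after their values were seen. Of 20 podocyte transcription factors 1 fell, Foxd1, a gene of the renal stroma and of developing podocytes (-0.72, adjusted p = 0.0428). Foxd1 was also the only 1 of 15 mesangial cell markers that passed, in a list with a median of 0.02.

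Of 32 other podocyte genes 3 fell and 2 rose (0.233% and 0.841% over all genes), and 16 had an unadjusted p under 0.05 (9.08% over all genes). The list had 23 negative values, against 8694 of 16291 over all genes, and a median of -0.15. In 11 genes all knockouts lay below all controls, as in 6.26% of all genes. Vegfa (chr17:46016993-46032377), the growth factor that podocytes release to the endothelium, was at 439, 446 and 389 CPM in controls and 224, 236 and 224 CPM in knockouts (-0.89, SE 0.11, adjusted p = 0.0241). Thsd7a, a podocyte foot process protein known as an autoantigen of membranous nephropathy, was at 448, 567 and 452 CPM in controls and 221, 207 and 152 CPM in knockouts (-1.34, SE 0.19, adjusted p = 0.0298). Cdkn1c, the cyclin-dependent kinase inhibitor p57 that marks mature podocytes, was at 1247, 1141 and 1138 CPM in controls and 690, 654 and 729 CPM in knockouts (-0.77, SE 0.12, adjusted p = 0.0465). Every knockout lay below every control in these genes. The 2 that rose were Ptgds, given above, and Robo2, a guidance receptor of the foot process (402, 453 and 402 CPM in controls, 936, 1505 and 992 CPM in knockouts, 1.45, adjusted p = 0.0339). With 1 library left out Vegfa kept its call in 1 of 6 fits (adjusted p up to 0.160), and Thsd7a, Cdkn1c, Robo2 and Foxd1 in none (up to 0.128, 0.211, 0.153 and 0.176). No glomerular endothelial marker among 24 passed in edgeR (3 had an unadjusted p under 0.05, and DESeq2 called 1). That list had 20 negative values and a median of -0.22.

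Growth factor pathways changed in single members. Bmpr1b (chr3:141837135-142169585), a type I receptor for bone morphogenetic proteins, was at 20.5, 25.6 and 18.4 CPM in controls and 4.56, 4.64 and 5.77 CPM in knockouts (-2.11, SE 0.18, adjusted p = 0.00588), the only 1 of 34 BMP genes to pass. Wnt5b, a Wnt ligand, was at 7.91, 9.84 and 9.07 CPM in controls and 27.6, 30 and 32.2 CPM in knockouts (1.74, SE 0.14, adjusted p = 0.00388), the only 1 of 44 Wnt genes. Both kept their call with any library left out. Of 27 FGF genes Fgf14, an intracellular FGF homologue that binds sodium channels, rose from 0.252 to 0.327 CPM to 3.03 to 4.74 CPM (3.68, adjusted p = 0.00247), and Spry1, a feedback inhibitor of receptor tyrosine kinases, fell from 42.0 to 47.3 CPM to 19.9 to 21.7 CPM (-1.05, adjusted p = 0.0116). The call of Spry1 held in 2 of 6 fits (adjusted p up to 0.0893). Angptl7, an angiopoietin-like gene, rose by 4.05 (adjusted p = 0.0134), from 2.71 to 6.07 CPM in controls to 39.1 to 98.8 CPM in knockouts, and its call held in 3 of 6 fits (adjusted p up to 0.0776).

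Tagln, which encodes the actin-binding protein transgelin of smooth muscle and a known target of TGF-beta, stood at 61.9, 65.3 and 65.8 CPM in controls and 719, 341 and 1577 CPM in knockouts (3.77, SE 0.55, adjusted p = 0.0339). The controls were nearly equal and the knockouts ranged widely among themselves. The call held in 2 of 6 fits with a library left out (adjusted p up to 0.182). No other of 15 smooth muscle and renin cell markers passed, with a list median of 0.03. Acta2 had a log2 fold change of 0.37 (adjusted p = 0.717) and Myh11, named after its values were seen, of -0.02 (adjusted p = 0.997).

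Genes of neural signalling and ion transport moved in both directions. Of 56 genes of potassium channels and proteins that bind them 5 rose and 1 fell (0.841% and 0.233% over all genes). Kcnk15, a tandem pore domain channel gene, had 6 counts over the 3 controls and 1159 over the 3 knockouts, a depth-scaled ratio of 184 (95% exact interval 84.4 to 503, covering counting error only). Kcnf1 (2.06), Kcnip4 (1.74), Kcnd3 (1.28) and Kcnh3 (1.23) were higher and Kcng2 (-1.96) lower by log2 fold change, with adjusted p of 0.0266, 0.0188, 0.0281, 0.0447 and 0.00942. Kcnk15 lost its call without control 2 (adjusted p = 0.0729), and Kcng2 without control 2 (0.0583) and without knockout 2 (0.0565). Of the 6 fits with a library left out, Kcnf1 kept its call in 2, Kcnip4 in 1 and Kcnd3 and Kcnh3 in none, with adjusted p of up to 0.214. Of 55 neurotransmitter receptor genes 3 rose and none fell (0.841% and 0.233% over all genes). Gabrb1, a subunit of the GABA-A receptor, was at 5.65, 6.76 and 5.94 CPM in controls and 55.8, 53 and 41.7 CPM in knockouts (3.04, SE 0.16, adjusted p = 0.000954). Gabra4, another subunit, overlaps Gabrb1 by 387 bases on chromosome 5 and rose by 0.91 (adjusted p = 0.0339). Strand was not stated for the counting, so reads in the overlap cannot be told apart. Chrnb1, an acetylcholine receptor subunit, rose by 0.82 (adjusted p = 0.0354). Gabrb1 kept its call with any library left out, and Gabra4 and Chrnb1 kept theirs in none.

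In the lists of anion transporters and of connexins and nectins the called genes fell. Slc26a7 (chr4:14502430-14621946), a chloride and bicarbonate transporter, was at 22.5, 23.5 and 18.6 CPM in controls and 3.43, 4.00 and 3.69 CPM in knockouts (-2.54, SE 0.15, adjusted p = 0.00147), the only 1 of 42 anion transporter genes to pass. Of 14 connexin and nectin genes 2 fell (0.233% over all genes), the connexin gene Gja3 (-1.96, adjusted p = 0.0387) and the nectin gene Nectin4 (-2.25, adjusted p = 0.0243). Fgl2, a fibrinogen-like protein with prothrombinase activity, was at 56.7, 44.8 and 42.5 CPM in controls and 13.7, 13.8 and 12.8 CPM in knockouts (-1.84, SE 0.15, adjusted p = 0.00388). Slc26a7, Fgl2 and Bmpr1b were the only lower genes called in all 6 fits with a library left out, beside 28 higher ones, whereas Gja3 and Nectin4 were called in 1 each (adjusted p up to 0.199 and 0.0882). Among called genes with a named symbol the largest decreases were less even between libraries. Opcml, a neural cell adhesion gene, was at 17.5, 17 and 3.93 CPM in controls and 0.897 to 1.14 CPM in knockouts (-3.67, adjusted p = 0.0431), and Acpp, an acid phosphatase gene, at 380, 378 and 283 CPM and 20.9, 21.5 and 65.4 CPM (-3.27, adjusted p = 0.0387). Each kept its call in 1 of 6 fits, with adjusted p of up to 0.211 and 0.156. Fgfbp1, a secreted binding protein for FGFs, had the most negative log2 fold change of all genes tested, -4.86, and did not pass (adjusted p = 0.0568). It was at 72.5, 63.7 and 11.5 CPM in controls and 2.98, 1.15 and 0.932 CPM in knockouts, with control 3 far below the other controls. It passed in 4 of 13 other settings, among them without control 3 (adjusted p = 0.0172). Of 42 Slit-Robo, netrin and ephrin guidance genes 2 passed (1.07% over all genes), Robo2, given above, which rose, and Ephb1, which fell (-0.97, adjusted p = 0.0332). Of 31 semaphorin, plexin and neuropilin genes 1 passed, Sema3b, which rose (0.80, adjusted p = 0.0332). Ephb1 was called in 1 and Sema3b in 0 of the 6 fits (adjusted p up to 0.153 and 0.190).

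Prm1 (chr16:10796332-10796823) encodes protamine 1, which packs DNA in sperm heads, and had the largest change. It had 5 counts over the 3 controls and 11711 over the 3 knockouts, a depth-scaled ratio of 2234 (95% exact interval 957 to 6883). In CPM the knockouts stood at 58.9, 50.0 and 46.7 and the controls at 0.0140, 0.0393 and 0.0143 (adjusted p = 4.37e-05). Prm1 was also called higher at baseline, with knockouts at 32.4 to 38.5 CPM and controls at up to 0.087 CPM (log2 fold change 9.21, adjusted p = 0.00163). The tables list 6 of 20 genes of a spermatid list. Of the other 5 none passed, and the median of the 6 was -0.07.

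Lists tied to diabetes and injury held no called gene. They were insulin signalling and glucose genes (36 tested, 5 with an unadjusted p under 0.05), endoplasmic reticulum stress (27 and 0), oxidative stress defence (31 and 1), fatty acid oxidation (27 and 2), p53 response (24 and 2), interferon-stimulated genes (39 and 1), complement (24 and 3) and MHC class II (9 and 0). Over all genes 9.08% had such a p. Outside the complement list the C1r-related genes C1rb (1.57, adjusted p = 0.0134) and C1rl (0.81, adjusted p = 0.0446), named after their values were seen, rose and kept their call in 3 and 0 of the 6 fits with a library left out (adjusted p up to 0.0939 and 0.216). The C1r genes have near-identical copies, so their counts are uncertain. DESeq2, which called 565 genes over the whole table, called 1 gene each of the insulin and complement lists and 0 of the other 6 lists. Of 41 NF-kappaB target, chemokine and adhesion genes 2 cytokine genes rose (0.841% over all genes), Il1f9 (1.68, adjusted p = 0.0203) and Il34 (0.88, adjusted p = 0.0243). They were called in 1 and 0 of the 6 fits with a library left out. No marker of proximal tubule, macrophages, lymphocytes or red blood cells was called by edgeR or DESeq2, and 0 had an unadjusted p under 0.05. Negative log2 fold changes were found in 20 of 21 macrophage markers (median -0.59) and 12 of 12 red blood cell markers (median -0.44). They were found in 20 of 28 proximal tubule markers and 8 of 14 lymphocyte markers, against 8694 of 16291 over all genes. The mean level of each list overlapped between the groups. A difference in cell content was not tested.

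Several called genes were neighbours. In 10 pairs the genes lay within 200 kb of each other, and in all 10 both genes rose. Of all 175 called genes 137 rose. How many such pairs as many genes picked at random would give was not counted. Besides Omd with Ogn and Gabra4 with Gabrb1, Sdc2 and Cpq on chromosome 15 lay 48408 bases apart and Steap2 and Steap1 on chromosome 5 lay 41673 bases apart. Cpq, a secreted peptidase gene named after its values were seen, was at 237, 239 and 238 CPM in controls and 620.1, 694 and 621 CPM in knockouts (1.44, adjusted p = 0.00388), and kept its call with any library left out.

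Knockouts and controls were also compared without STZ in other mice, where 31 of 13475 genes were called (0.23%). Of these 25 (80.6%) were also called after STZ, all in the same direction, 21 higher and 4 lower, which is 14.3% of the STZ calls. Of the 155 genes called after STZ that were tested at baseline, 110 of 120 higher ones had a positive and 34 of 35 lower ones a negative log2 fold change there. In 81 of the 120 all baseline knockouts lay above all baseline controls, against 4.98% of all genes tested there, and in 32 of the 35 all lay below, against 6.87%. The median log2 fold change of the higher genes was 1.5 after STZ and 0.69 at baseline, and that of the lower genes -1.41 and -1.47. The genes were chosen by their STZ test, which favours a larger value in that arm, and the STZ libraries were deeper in total counts than the baseline libraries (22636457 to 24925847). Because only the STZ controls carry the tag hetN, the control genotype may also differ between the arms. Such a difference cannot be told apart from that of STZ.

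In edgeR's test of whether the genotype difference itself differed between the arms, Adamtsl1 was the only gene called (0.00742% called). Its interaction was 1.52 on the log2 scale (SE 0.17, adjusted p = 0.0440). An unadjusted p under 0.05 was found in 494 of 13475 genes, and DESeq2 called 31 genes. The log2 fold change of Adamtsl1 was 3.31 at baseline and 4.84 after STZ, but its interaction was not called in any of 12 fits with a library left out. Parm1, a mucin-like membrane protein gene, rose by 5.11 after STZ (2.47, 4.60 and 2.47 CPM in controls, 125, 88.4 and 117 CPM in knockouts) and by 2.25 at baseline, an interaction that did not pass (2.86, adjusted p = 0.0578). Cyp26a1 had a log2 fold change of 0.27 at baseline, where its controls spread from 1.97 to 22.5 CPM, and its interaction did not pass either (3.71, adjusted p = 0.938).

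**Figure D4:**
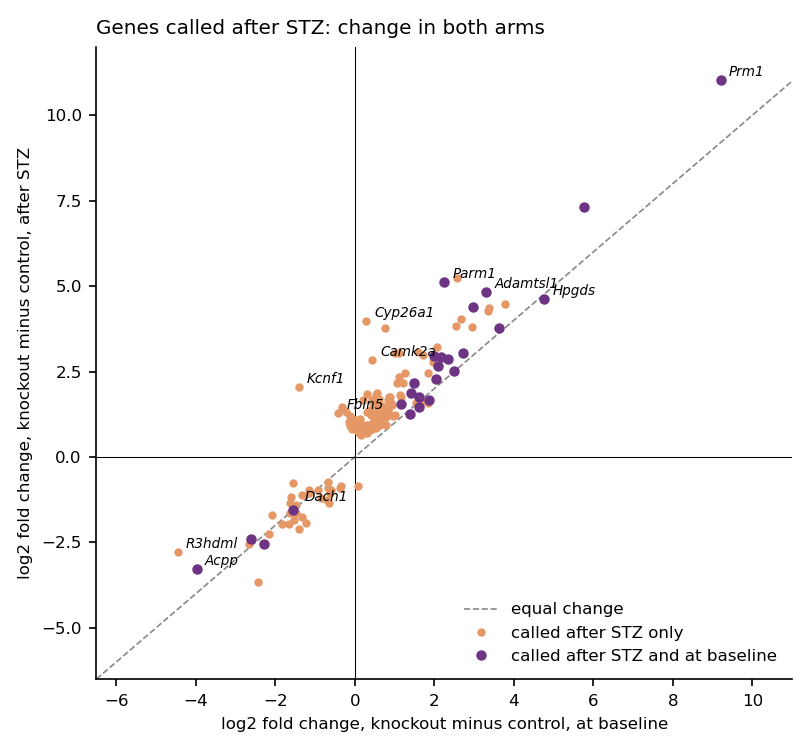
Log2 fold change (knockout minus control) at baseline and after STZ of the 155 genes called after STZ and tested in both arms, with purple points for the 25 called in both and a dashed line of equal change. The higher genes lie mostly above the line and the lower genes on both sides of it, and genes were chosen on the vertical axis.

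The STZ tables listed 2818 genes that the baseline tables did not. Of the 2817 tested 20 were called (0.71%, against 1.15% of the genes in both arms), 17 higher and 3 lower. Besides Kcnk15, Fgf14, Mmp27 and Kcnip4 they included Xkr4, a membrane scramblase family gene (0.330 to 0.645 CPM in controls, 3.91 to 6.70 CPM in knockouts, 3.35, adjusted p = 0.00942), and Coro6, a coronin actin-binding gene (4.23 to 7.61 CPM in controls, 1.85 to 2.30 CPM in knockouts, -1.62, adjusted p = 0.0442). The call of Xkr4 was lost without control 2 (adjusted p = 0.0635), and that of Coro6 held in 1 of 6 fits with a library left out (adjusted p up to 0.211).

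**Figure D5:**
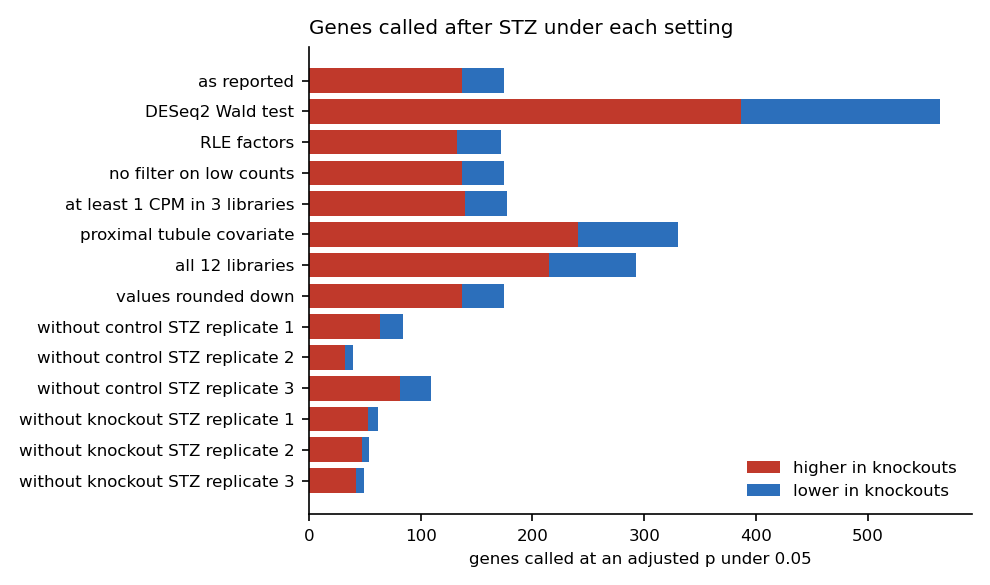
Number of genes called at an adjusted p under 0.05, higher (red) and lower (blue) in knockouts, under each of the 13 other settings and as reported. Higher genes outnumber lower ones throughout, from 40 genes called without control replicate 2 to 565 with DESeq2.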

How the data were processed

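RNA-seq of glomeruli was compared in 3 knockout and 3 control libraries after STZ. The authors deposited a table of estimated counts by gene symbol for each library. They were not scaled to depth, and 10.5% to 11.2% of them ended in 0.5 in the STZ libraries. BWA and mm10 appear in the submitters' processing notes with no role stated. How reads were counted, with which annotation and strand, is not given in the sources used here. All genes listed in the STZ tables reached 100 counts in at least 1 library. The 10 blank values were taken as 0, and values were rounded to whole numbers.

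Genes were filtered with filterByExpr, scaled with TMM factors and tested on the 6 libraries with edgeR's quasi-likelihood test and Benjamini-Hochberg adjustment (edgeR 4.0.16, limma 3.58.1, R 4.3.3). The interaction was fitted on 12 libraries and the 13475 genes listed in both arms. Standard errors of log2 fold changes were derived from the F statistic. Totals were 66134170 to 78631380 counts, and p-values measure the spread between the 3 mice per group. Exact tests of single genes with 3 against 3 cannot go below p = 0.10. Reads carry no molecular identifiers, so intervals of count ratios describe counting error alone. Between STZ replicates chi-square divided by its degrees of freedom was 82.0 to 352, so no library was a copy of another. The steps were tested on simulated counts.

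The genes named are Dach1, Nell2 and Paxip1, up to 20 called genes of largest change in each direction with a mean of at least 1 CPM, the 20 of smallest p, the called members of each list with up to 3 further members of smallest p, the 10 called genes of largest change listed only after STZ, and the 5 of smallest interaction p in each direction. Not all are described, and 1 is not reported here. Symbols of predicted genes and clones (11 of the called genes) were counted and not named. The comparison, the lists and the rule were chosen with earlier results of these data known. Positions and promoters come from RefSeq (GRCm38.p6), which matched 16245 symbols (99.7%). Alternatives were DESeq2 1.42.0, RLE factors, 2 other filters, rounding down, a proximal tubule covariate, all 12 libraries in 1 fit, and leaving out each library.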

Additional observations from a re-analysis of the deposited data

Results flagged for a closer look

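Adamtsl1 differed between the arms by the test of the difference itself. Its difference between knockouts and controls was 1.52 larger on the log2 scale after STZ than at baseline (edgeR's quasi-likelihood test of the interaction, adjusted p = 0.0440). Only the STZ controls carry the tag hetN, so a difference in control genotype cannot be told apart from that of STZ. The 3 knockouts were at 48.3 to 56.4 CPM at baseline and at 114 to 141 CPM after STZ, and the controls at 4.68 to 5.64 CPM and 4.09 to 4.85 CPM, each arm scaled by itself. The interaction was not called in any of 12 fits with a library left out.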

How the results depend on the processing

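The number of genes called after STZ was 175. It was 565 with DESeq2 (387 higher, 178 lower), 330 with the proximal tubule covariate (241 and 89) and 293 with all 12 libraries in the fit (215 and 78), and 40 to 109 with a library left out, where 2 mice stand against 3. RLE factors gave 172, no filter 175, a filter of 1 CPM in 3 libraries 177 and rounding down 175. DESeq2 and the covariate fit called all 175 genes, and no called gene changed sign under any of the 13 alternatives. Of the 175, 58 kept their call in none of the 6 fits with a library left out. The log2 fold change of Dach1 was -1.5 to -1.32 over these fits. The interaction was called in 1 gene, in 31 with DESeq2, in 2 with RLE factors, in 1 with no filter and in 0 to 2 with a library left out. Among genes that did not pass, the sign turned with a library left out for Cyp26b1 (-1.57 to 0.028, positive without control 1), Ecm2 (-0.077 to 0.14, negative without control 1 and without knockout 2), Myh11 (-0.29 to 0.15, positive without knockout 1 and without knockout 2) and Pdgfra (-0.42 to 0.012, positive without control 2). The causes were not tested. No paired analysis was possible because replicate numbers only follow the order of the samples. The 3 mice per group limit what can be called. A group at under 1 CPM can rest on few counts, such as 5 over the 3 controls for Prm1 and 6 for Kcnk15, though Xkr4 had 115.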
